A study of Homo sapiens with 267 samples.

Results

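The mitochondrially encoded genes are the rows of the deposited count table whose Ensembl gene lies on the mitochondrial chromosome, and all 37 of them were found among its 63677 genes. They comprise 13 mRNAs, 2 rRNAs and 22 tRNAs. The genes were measured in K562 cells, an immortalised line from a patient with chronic myelogenous leukaemia that carries the BCR-ABL1 fusion and has erythroid features. The study asked whether cells fixed with DSP, a reversible cross-linker, give single-cell transcriptomes like those of fresh cells, and it captured K562 cells on the Fluidigm C1 in 3 experiments, each called a run here. An experiment held fresh cells and cells fixed for some days, so it took more than 1 capture.

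The mitochondrial genome is a small circle that is transcribed from both strands into long precursor RNAs. Many of the mRNAs and rRNAs are flanked by tRNAs, and excision of these tRNAs by RNase P and ELAC2 releases the mature transcripts, most of which then receive short poly(A) tails. The 13 mRNAs encode core subunits of the respiratory chain and ATP synthase, the 2 rRNAs form the mitochondrial ribosome, and the tRNAs serve translation within the organelle. In single-cell RNA sequencing the mitochondrial share of reads is widely used as a measure of cell integrity.

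Groups were taken from the library titles, stains and treatments. The Hoechst run held 96 untreated libraries from cells at passages 90 to 92, stained with Hoechst and propidium iodide, which enters dead cells. The benzene run held 38 titles of untreated cells stained with CellTracker Green and 37 titles of cells stained with CellTracker Orange and exposed to 10 mM benzene for 3 h, of which 36 and 35 had counts. The imatinib run held 51 untreated Green libraries and 45 Orange libraries exposed for 1 h to 1 µM imatinib, an inhibitor of the ABL kinase. Both CellTracker runs used cells at passages 20 to 22 and a fixable dead-cell stain. By the paper, cells stained as dead were sequenced in the Hoechst experiment but excluded from sequencing in the CellTracker experiments. It also gives a distinct lot of K562 cells, another sequencer and other storage times after fixation for the Hoechst experiment. Drug and dye coincide in these runs and cannot be told apart. The labels used here do not give which libraries came from fresh or fixed cells, bulk RNA or dead cells. Each run was 1 culture batch, so all values are descriptions of these libraries and no test was made between runs or groups.

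The 263 libraries held between 50358 and 2043351 reads on genes, of which 10.9% overall were mitochondrial. Mitochondrial reads per library ranged from 1251 to 567199, with a median of 102936. The libraries expressed markers of the line: PRAME was detected in all 263 (more than 2 reads), with median values of 2636, 2984 and 3353 CPM in the Hoechst, benzene and imatinib runs, and GATA1, an erythroid transcription factor, had medians of 278, 253 and 452 CPM. Of the markers of other cell types, MS4A1 was detected in 0 libraries and CD3E, CD2 and CD14 in at most 2 of a run. PTPRC (medians of 27.7, 38.6 and 35.4 CPM) and EPCAM (23.9, 9.51 and 24.9 CPM) were present in each run.

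The arrangement of the genes set what could be counted. The GRCh37 mitochondrial sequence is 16569 bases long and 1211 of its bases lie in no gene. MT-ATP8 and MT-ATP6, which encode subunits of ATP synthase and share an mRNA, overlap by 46 bases, and MT-ND4L and MT-ND4, subunits of complex I, overlap by 7 bases. The overlaps are shown with 20 flanking bases on each side, the shared bases in capitals. A read that touches the shared bases lies on both genes and cannot be given to either alone by position. Full-length reads are longer than these overlaps, so the limit reaches beyond the shared bases.
MT-ATP8 and MT-ATP6, chrMT:8507-8592, plus strand: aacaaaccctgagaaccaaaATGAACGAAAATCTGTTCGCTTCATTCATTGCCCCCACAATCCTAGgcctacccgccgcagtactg
MT-ND4L and MT-ND4, chrMT:10740-10786, plus strand: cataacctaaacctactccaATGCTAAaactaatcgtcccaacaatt
Of the 13 mRNA genes, 6 end without a full stop codon, and the poly(A) tail supplies its remaining bases. The last 30 bases of the 5 mRNAs whose shares set runs or libraries apart most are shown 5′ to 3′ in the RNA sense, with the bases of the final codon in capitals. MT-ND3 and MT-CYB end in such a partial codon, while MT-CO1, MT-ND5 and MT-ND6 end in a full one. MT-ND6 is the sole mRNA encoded on the minus strand.
MT-CO1, chrMT:7416-7445, plus strand: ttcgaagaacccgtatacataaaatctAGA
MT-ND5, chrMT:14119-14148, plus strand: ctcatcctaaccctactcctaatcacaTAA
MT-ND6, chrMT:14149-14178, minus strand: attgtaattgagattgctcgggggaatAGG
MT-ND3, chrMT:10375-10404, plus strand: gactacaaaaaggattagactgaaccgaaT
MT-CYB, chrMT:15858-15887, plus strand: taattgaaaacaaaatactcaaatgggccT
The reference also holds nuclear copies of mitochondrial sequence, and a read that matches both places is not unique. There were 54 exact nuclear copies of at least 75 bases, the longest of 279 bases on chromosome 1. MT-CO1 was the most affected, since 36.6% of its 75-base windows and 27.9% of its 100-base windows lay in an exact nuclear copy. The figures were 34.4% and 26.1% for MT-ND2, 28.4% and 21.2% for MT-RNR1, and 28.01% and 11.9% for MT-ATP6. They were 0% for MT-ATP8, MT-ND3, MT-ND4L, MT-ND4 and MT-CYB. The Hoechst run was read at 100 bases and the CellTracker runs at 75 bases, so levels of different genes, and of 1 gene between these read lengths, carry this limit.

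Mitochondrial RNA took a larger part of the reads in the Hoechst run. Its share of reads on genes was 0.851% in the lowest library, 13.9% at the median and 88.9% in the highest. In the benzene run the corresponding values were 0.483%, 6.52% and 47.2%. In the imatinib run they were 0.231%, 6.61% and 22.3%. The Hoechst quartiles of 9.96% to 20.5% lay above those of the benzene run (4.92% to 8.58%) and the imatinib run (4.904% to 9.64%), although the full ranges overlapped. Dead-stained cells were left out of the CellTracker runs alone, and the part of this in the difference was not tested. Between stains the medians were close: 6.32% in the 35 benzene-treated Orange libraries and 6.58% in the 36 untreated Green libraries, and 7.02% in the 45 imatinib-treated Orange libraries and 6.31% in the 51 untreated Green libraries.

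Messenger RNAs made up most of the mitochondrial reads in each run, with median shares of 73.7% in the Hoechst run, 76.8% in the benzene run and 78.6% in the imatinib run. The rRNAs together took 26.1%, 22.98% and 21.2%, and the tRNAs 0.183%, 0.128% and 0.171%. These are shares of reads and not amounts of RNA in the cell, since how fully each class was captured was not measured. The complex I mRNAs, 7 genes, held 31.6%, 28.6% and 27.2% of mitochondrial reads, and the 3 cytochrome c oxidase (complex IV) mRNAs held 29.1%, 31.9% and 34.5%. MT-ATP6 and MT-ATP8 together held 6.93%, 7.33% and 7.49%.

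Per kilobase of gene, MT-CO2, the subunit that receives electrons from cytochrome c, had the highest median share in every run, at 18.1, 21.1 and 18.5% per kb in the Hoechst, benzene and imatinib runs. MT-RNR2, the 16S rRNA of the large ribosomal subunit, came next in the Hoechst run at 14.1% per kb, against 8.92 and 9.76% per kb in the benzene and imatinib runs. MT-CO3, which completes the core of complex IV, had 11.5, 11.2 and 12.01% per kb, and MT-ND4 had 10.8, 11.9 and 9.29% per kb. The lowest 3 positions were held in each run by MT-ND5, MT-ND6 and MT-ND3, with MT-ND3 last at 0.807, 0.271 and 0.381% per kb. MT-ND5 and MT-ND6 stood at 1.498 and 1.548% per kb in the Hoechst run, a smaller gap than their spread between libraries.

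**Figure D1:**
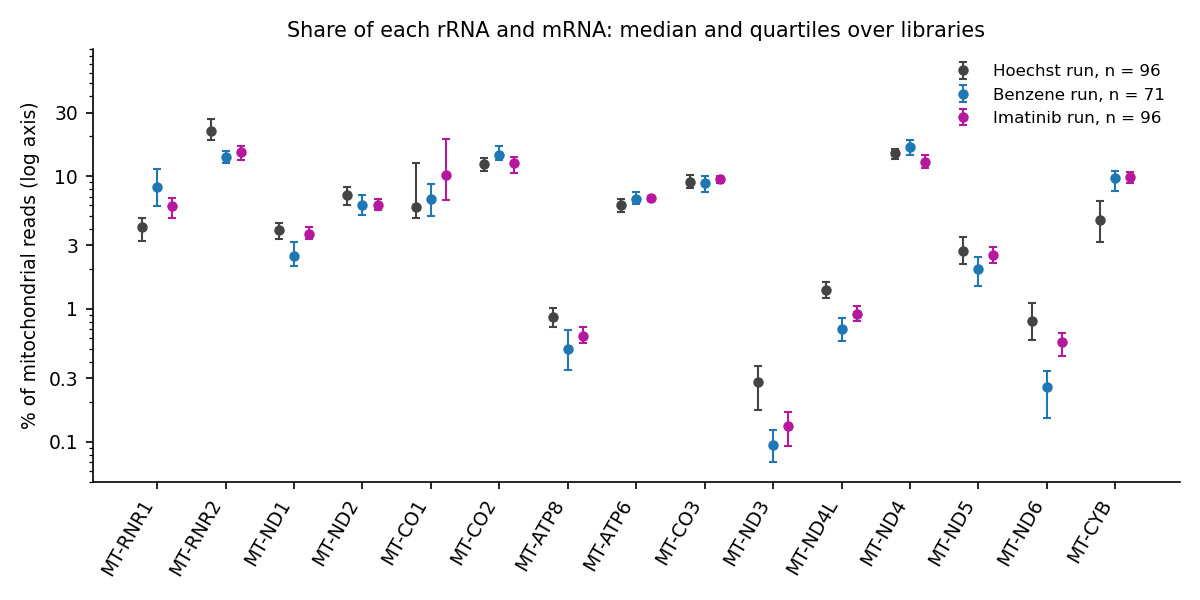
Median share of each mitochondrial rRNA and mRNA among mitochondrial reads (log axis, percent) in the Hoechst (n = 96), benzene (n = 71) and imatinib (n = 96) runs; bars span the quartiles over libraries. MT-CYB was lower and MT-RNR2 higher in the Hoechst run, and on this log axis MT-CO1 had the widest quartiles in the Hoechst and imatinib runs.

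Among the rRNAs the runs differed in opposite directions. MT-RNR2 ranged from 11.98% through a median of 22.0% to 40.6% of mitochondrial reads in the Hoechst run, from 8.56% through 13.9% to 26.4% in the benzene run, and from 8.82% through 15.2% to 37.3% in the imatinib run. MT-RNR1, the 12S rRNA of the small subunit, had lowest, median and highest shares of 1.73%, 4.14% and 7.35%, then 2.71%, 8.31% and 18.9%, and then 1.59%, 5.95% and 12.1%, in the same order of runs. MT-RNR2 was therefore highest and MT-RNR1 lowest in the Hoechst run, and for MT-RNR2 the Hoechst quartiles of 18.8% to 26.9% lay above those of the benzene run (12.5% to 15.3%) and the imatinib run (13.3% to 16.7%).

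MT-CYB, the mitochondrial subunit of complex III, was lower in the Hoechst run, with a lowest, median and highest share of 0.133%, 4.63% and 9.97%. The benzene run had 0.927%, 9.63% and 16.3%, and the imatinib run 2.13%, 9.84% and 13.4%. The Hoechst quartiles (3.21% to 6.49%) did not meet those of the benzene (7.71% to 10.9%) or imatinib run (8.92% to 10.8%), although the full ranges overlapped.

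The shortest mRNAs and MT-ND6 took larger shares in the Hoechst run. MT-ND3, a complex I subunit of 346 bases, had a median of 0.279% there, against 0.094% in the benzene and 0.132% in the imatinib run. MT-ND4L, at 297 bases, had medians of 1.39%, 0.707% and 0.916%, with Hoechst quartiles of 1.20% to 1.58% above those of the other runs. MT-ATP8, at 207 bases, had medians of 0.873%, 0.497% and 0.629%. MT-ND6 had 0.813%, 0.257% and 0.560%. In 3 libraries of 1505 to 12489 mitochondrial reads MT-ND3 had no read, which allows shares of up to 0.199% in the shallowest and 0.0240% in the deepest. Likewise, in 1 benzene run library of 11991 mitochondrial reads MT-ND6 had none, which allows a share of up to 0.0250%. Read length, sequencer, cell lot, passage and stain all changed between the Hoechst run and the other runs. So did storage time after fixation and the sequencing of dead-stained cells. They cannot be told apart as sources of these differences.

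The remaining mRNAs differed less between runs. Median shares of MT-ND4 were 14.8%, 16.4% and 12.8%, of MT-CO2 12.4%, 14.4% and 12.6%, of MT-CO3 8.98%, 8.81% and 9.42%, and of MT-ATP6 6.02%, 6.74% and 6.78%. MT-ND2 had 7.24%, 6.09% and 6.08%, MT-ND1 3.95%, 2.51% and 3.66%, and MT-ND5 2.71%, 2.00% and 2.54%. For each of these 7 genes the Hoechst quartiles overlapped those of another run, as they also did for MT-ATP8 and MT-ND6. The benzene run's MT-ND1 quartiles (2.11% to 3.18%) lay below those of the Hoechst (3.35% to 4.46%) and imatinib runs (3.35% to 4.12%).

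MT-CO1, which encodes the catalytic subunit of complex IV, varied most of the mitochondrial genes, relative to counting error, among libraries of each run. Its lowest, median and highest shares were 2.13%, 5.803% and 20.8% in the Hoechst run, 0.868%, 6.75% and 24.1% in the benzene run, and 3.59%, 10.1% and 23.2% in the imatinib run. The SD over Hoechst run libraries was 5.09 percentage points, 92.1 times the SD that counting alone would give at the median number of mitochondrial reads and 59.8 times in the imatinib run. In percentage points MT-RNR2 varied more in the Hoechst run, with an SD of 5.97, which was 61.02 times its counting SD. Counting error covers neither PCR nor amplification of few molecules.

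The MT-CO1 share followed the number in the library title in the Hoechst and imatinib runs. In the Hoechst run the median was 15.99% in the 24 libraries numbered 1 to 24, 6.06% in numbers 25 to 48, 5.54% in numbers 49 to 72 and 4.74% in numbers 73 to 96. In the imatinib run the medians of the same blocks were 18.6%, 18.97%, 6.44% and 7.01%. In the benzene run they were 6.52%, 6.37%, 6.79% and, in 3 libraries, 8.60%. Those 3 libraries had a median of 11293 genes detected, against 5848, 5981 and 4989 in the earlier benzene blocks, so they were unlike the rest. A share above 10% was found in 22, 6, 0 and 2 of 24 Hoechst libraries per block and in 22, 23, 1 and 2 of 24 imatinib libraries, so the high values sat among low numbers in both runs. In the benzene run it was found in 5 of 21, 6 of 24, 1 of 23 and 1 of 3 libraries, also mostly among numbers up to 48, but without a difference of like size between the block medians. The labels do not say what the number stands for, and neither order of handling, chip nor fixation was tested. The blocks of 24 were chosen after the data were seen.

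Other members moved with the same blocks, in smaller steps. MT-CO2 had medians of 10.3%, 12.1%, 12.8% and 13.8% over the 4 blocks of the Hoechst run and 10.4%, 10.6%, 13.9% and 13.5% over those of the imatinib run. MT-RNR2 had 16.9%, 20.98%, 24.4% and 26.3%, and 13.4%, 13.1%, 16.7% and 15.9%. Both genes thus had lower medians in numbers 1 to 24 of the Hoechst run and 1 to 48 of the imatinib run, where MT-CO1 was high, than in the later numbers, and shares of a fixed sum are not independent. Reads per read of the ERCC spike-in, synthetic RNAs added to each reaction, do not share that sum: MT-CO1 had medians of 0.355, 0.136, 0.101 and 0.162 in the Hoechst blocks and 0.150, 0.172, 0.0452 and 0.0502 in the imatinib blocks. Mitochondrial reads as a whole had 2.29, 2.15, 2.03 and 3.07, and 0.789, 0.873, 0.711 and 0.657, per ERCC read. The MT-CO1 difference between blocks was therefore present on both scales.

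Measures of the whole library moved with the same blocks. Reads on all other genes per ERCC read had medians of 13.6, 14.6, 8.51 and 4.96 over the 4 imatinib blocks, and 10.06, 13.2, 15.3 and 11.96 over the Hoechst blocks. ERCC sequences took 6.48%, 6.04%, 9.704% and 15.03% of all counts in the imatinib blocks and 10.4%, 6.21%, 5.55% and 6.03% in the Hoechst blocks. Genes detected numbered 8334.5, 8373.5, 7842.5 and 6737 at the median of the imatinib blocks, and 5608.5, 7109, 7650.5 and 7674.5 at that of the Hoechst blocks. The blocks of high MT-CO1 thus had the most genes detected in the imatinib run and the fewest in the Hoechst run, where 10 of the 24 libraries numbered 1 to 24 held at least 40% mitochondrial reads. The part of these measures in the MT-CO1 pattern was not tested.

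**Figure D2:**
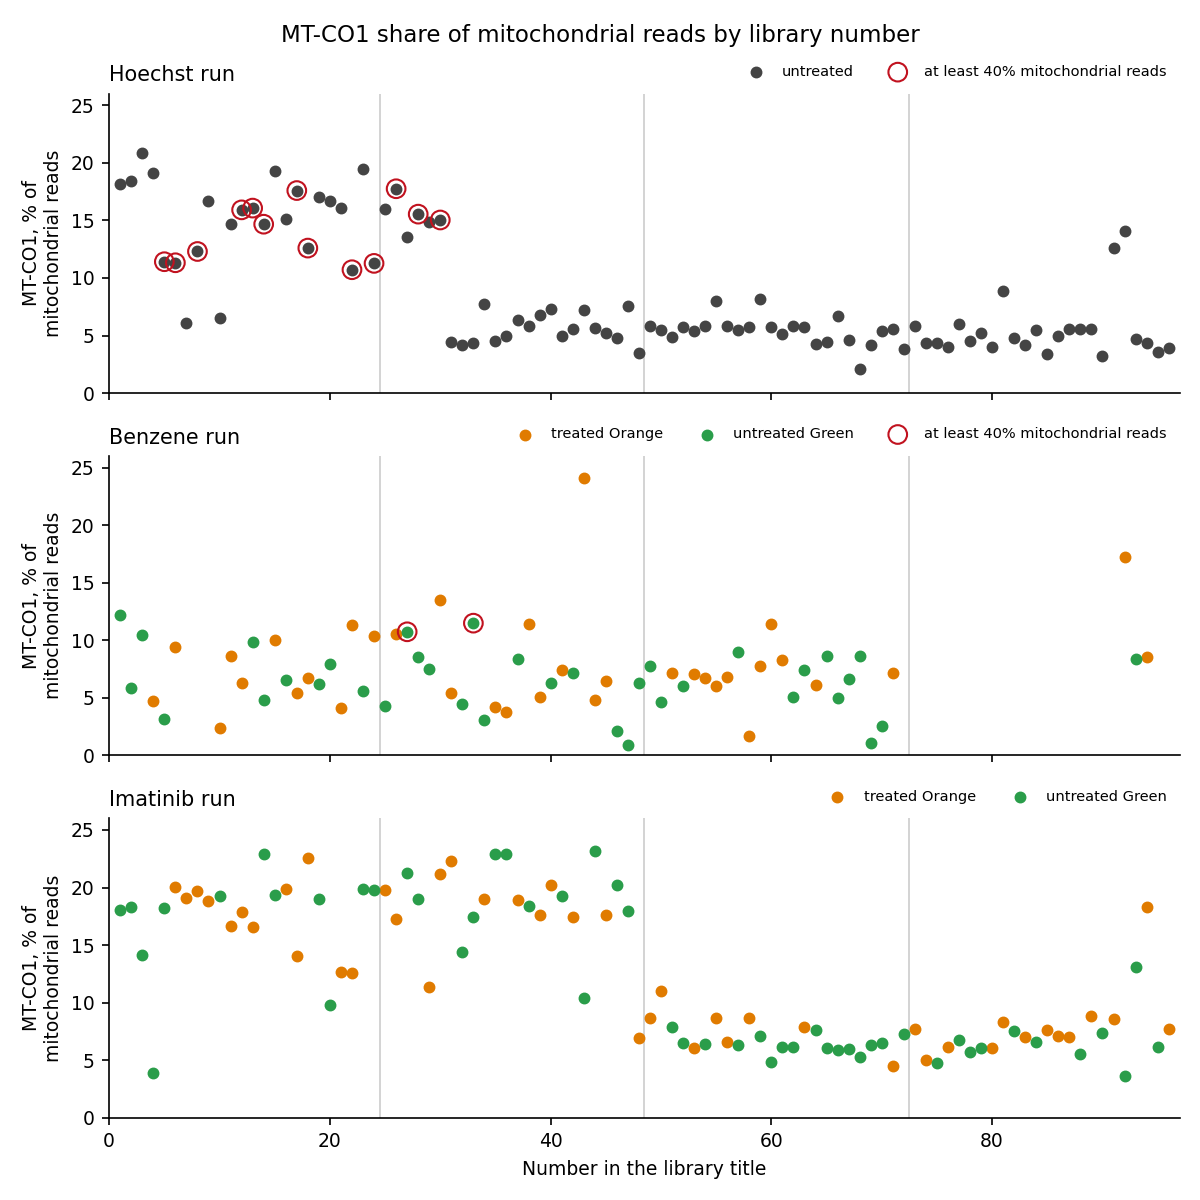
Share of MT-CO1 among mitochondrial reads (percent) against the number in the library title, 1 point per library, coloured by stain group, with grey lines between blocks of 24 numbers and red rings around libraries with at least 40% mitochondrial reads. High shares gather at low numbers in the Hoechst and imatinib runs, and all 13 ringed Hoechst libraries lie between numbers 5 and 30.

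At least 40% of reads were mitochondrial in 13 libraries of the Hoechst run, between 49.7% and 88.9%, and in 2 untreated Green libraries of the benzene run, at 43.1% and 47.2%. The imatinib run had 0. The libraries just below the limit held 28.9%, 30.997% and 33.4%, and those just above it 43.1%, 47.2% and 49.7%. The limit therefore fell in a gap between 33.4% and 43.1%. Since the split used the mitochondrial share itself, that share is no result here, and the following differences in composition are descriptions.

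All 13 high libraries of the Hoechst run had title numbers between 5 and 30, the range in which MT-CO1 was high in any case. Against all 83 libraries under 40%, MT-CO1 seemed higher: its share was 10.7% in the lowest, 14.7% at the median and 17.7% in the highest of the 13, and 2.13%, 5.59% and 20.8% in the 83. Against the 13 libraries under 40% with numbers from 5 to 30, whose lowest, median and highest shares were 6.09%, 15.97% and 19.5%, the median difference turned from 9.08 percentage points higher to 1.298 lower (-1.298), and 10 of the 13 high libraries lay below the median of the low ones. The other 70 libraries under 40% had a median of 5.47%. Within the Hoechst run the MT-CO1 share thus differed more between title numbers than between libraries of high and low mitochondrial share.

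The rRNAs showed the same dependence on title number. Their summed share was 20.4% in the 13 high libraries and 27.1% in all 83 others, a difference of -6.70 percentage points, but 21.01% in the 13 libraries under 40% with numbers 5 to 30, a difference of -0.583. MT-RNR2 had medians of 17.1% in the high libraries, 22.9% in all low libraries and 16.6% in those with the same numbers. MT-RNR1 had 3.30%, 4.30% and 3.42%.

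Several complex I mRNAs and MT-CYB were higher in the high libraries in both readings. MT-ND5, a proton-pumping subunit, had a lowest, median and highest share of 2.34%, 5.65% and 6.503% in the 13 high libraries. It had 1.99%, 3.07% and 4.54% in the 13 low libraries with the same numbers, and a median of 2.53% in all 83. The medians differed by 2.58 percentage points within these numbers, against an SD of 0.808 in the low libraries, and 10 of 13 high libraries exceeded the highest low one.

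MT-ND6 had 0.682%, 1.31% and 1.595% in the high libraries. It had 0.318%, 0.709% and 1.19% in the low libraries of the same numbers, and 11 of the 13 lay above that range. Over all 83 libraries under 40% MT-ND6 reached 1.505%, and 51 of them lay at or above the lowest high library. MT-ND3 had 0.080%, 0.385% and 0.460% against 0.107%, 0.179% and 0.400%, a ratio of medians of 2.15, and the ranges overlapped. The lowest MT-ND3 value came from the high library numbered 26, and the lowest MT-ND5 and MT-ND6 values from number 17.

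MT-CYB had 1.70%, 6.31% and 8.43% in the high libraries and 1.46%, 4.24% and 7.26% in the low ones of the same numbers, with 10 of 13 above the low median. MT-ND4L had medians of 1.58% and 1.304%, and all 13 high libraries were above the low median. MT-CO2, MT-ATP6 and MT-ATP8 stood the other way, with 12 of 13 high libraries below the low median for each. Their medians were 9.31% against 11.1%, 5.25% against 6.14%, and 0.711% against 0.827%, differences smaller than the SD of the low libraries. MT-ND1 (4.15% and 3.64%), MT-ND4 (14.3% and 14.6%), MT-ND2 (7.25% and 7.32%) and MT-CO3 (8.59% and 9.03%) differed by less than that SD too.

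The 2 high libraries of the benzene run, both untreated Green and numbered 27 and 33, gave a partly different picture. MT-ND5 stood at 2.44% and 1.85%, against a median of 2.00% in the 69 libraries under 40%. MT-ND6 stood at 0.487% and 0.525% against 0.251%, and 6 of the 69 reached the lower value. MT-CO1 stood at 10.7% (95% Wilson interval 10.6% to 10.9%, counting error alone) and 11.5% (11.4% to 11.6%) against 6.72%, and 7 of the 69 reached the lower value. Among the 69, untreated Green library 23 lay just below the limit, at 33.4% mitochondrial reads, and had an MT-CO1 share of 5.64%. It had 2295 genes detected, beside 2115 and 2065 in the 2 high libraries. MT-RNR1 stood at 3.70% and 5.85% against 8.34%. With 2 libraries there is no estimate of their spread. Of the genes higher in the Hoechst high libraries, MT-ND6 was also higher in both of these, and MT-ND5 was higher in 1 and lower in the other. MT-CYB was lower in both, at 7.78% and 9.44% against 9.72%. MT-ND3, at 0.083% and 0.105% against 0.094%, and MT-ND4L, at 0.902% and 0.676% against 0.707%, were each higher in 1 and lower in the other.

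**Figure D3:**
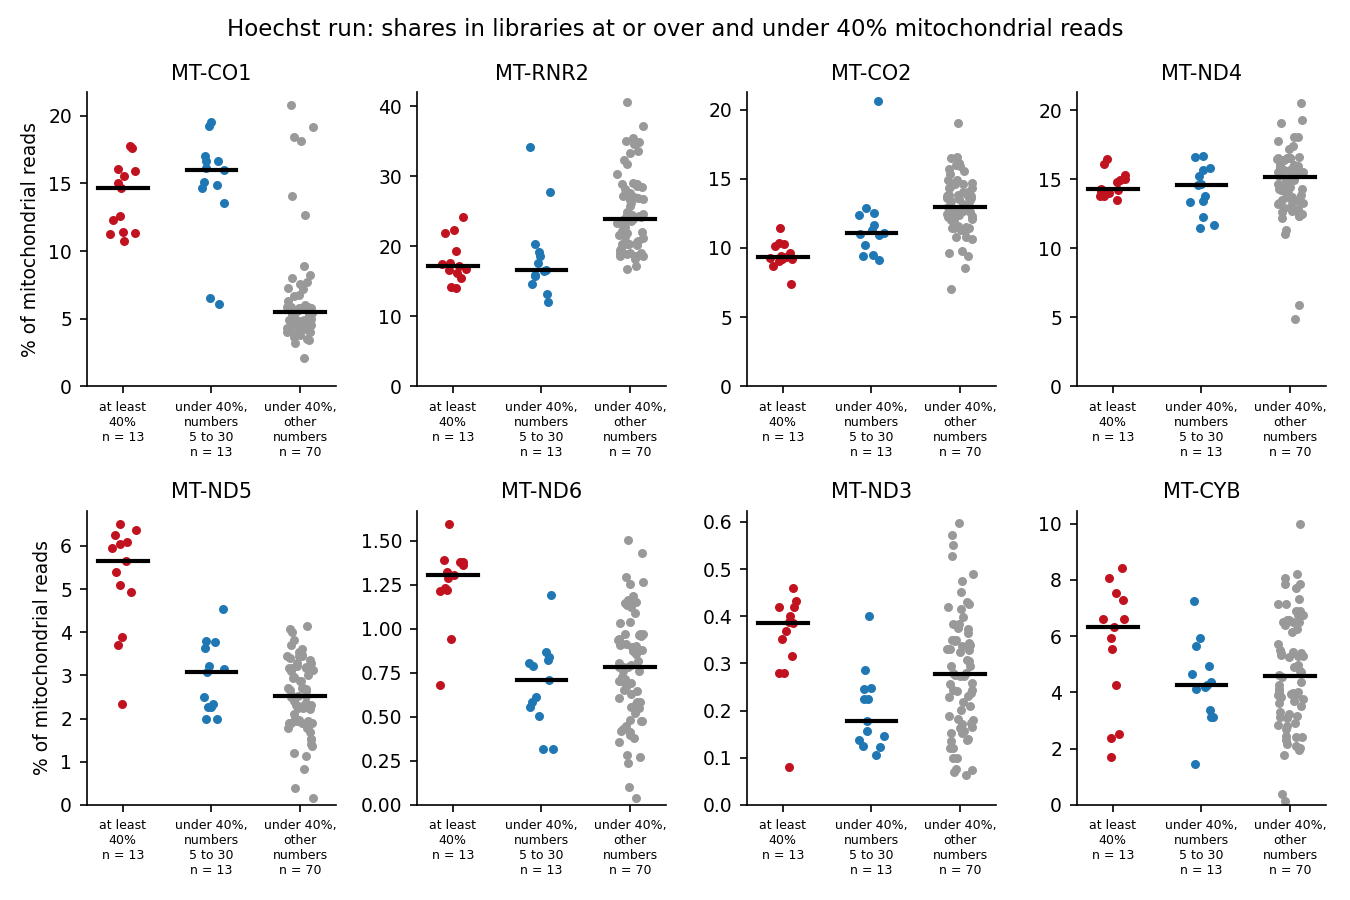
Share of 8 mitochondrial genes among mitochondrial reads (percent) in the Hoechst run, in 13 libraries with at least 40% mitochondrial reads, 13 under 40% with title numbers 5 to 30, and 70 under 40% with other numbers; points are libraries and lines medians. MT-CO1 and MT-RNR2 separate by title number, whereas MT-ND5 and MT-ND6 have higher medians in the libraries of at least 40% than in both other sets, with ranges that overlap.

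Relative to the spike-in, the high libraries differed from the rest in their other reads more than in their mitochondrial reads. Mitochondrial reads per ERCC read had a lowest, median and highest value of 0.950, 2.20 and 2.98 in the 13 high Hoechst libraries and a median of 2.18 in the 83 others, 52 of which lay within the high range. Reads on all other genes per ERCC read had 0.243, 0.603 and 2.46 in the high libraries and a median of 15.3 in the others, 25.3 times as many, and 1 of the 83 lay at or below the highest high library. Within title numbers 5 to 30 the low libraries had medians of 3.23 mitochondrial and 33.4 other reads per ERCC read, 1.47 and 55.4 times those of the high libraries. In the benzene run the medians were 1.33 mitochondrial reads per ERCC read in the 2 high libraries and 1.66 in the 69 others, and 1.62 and 22.0 for the other genes, a ratio of 13.5. Genes detected numbered 2027 at the median of the high Hoechst libraries and 7407 in the others, and ERCC sequences took 26.1% and 5.43% of all counts. The part of cell number in a reaction and of RNA content per cell in these differences was not tested.

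On this scale MT-ND5 stood at 0.116 reads per ERCC read at the median of the high Hoechst libraries, 0.0868 in the low libraries with numbers 5 to 30 and 0.0652 in all low ones. MT-ND6 stood at 0.0284, 0.0194 and 0.0185. MT-CO1 stood at 0.288, 0.537 and 0.133, and MT-RNR2 at 0.375, 0.506 and 0.494. MT-ND5 and MT-ND6 were thus higher in the high libraries also per spike-in read, while MT-CO1 was lower than at the same title numbers.

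**Figure D4:**
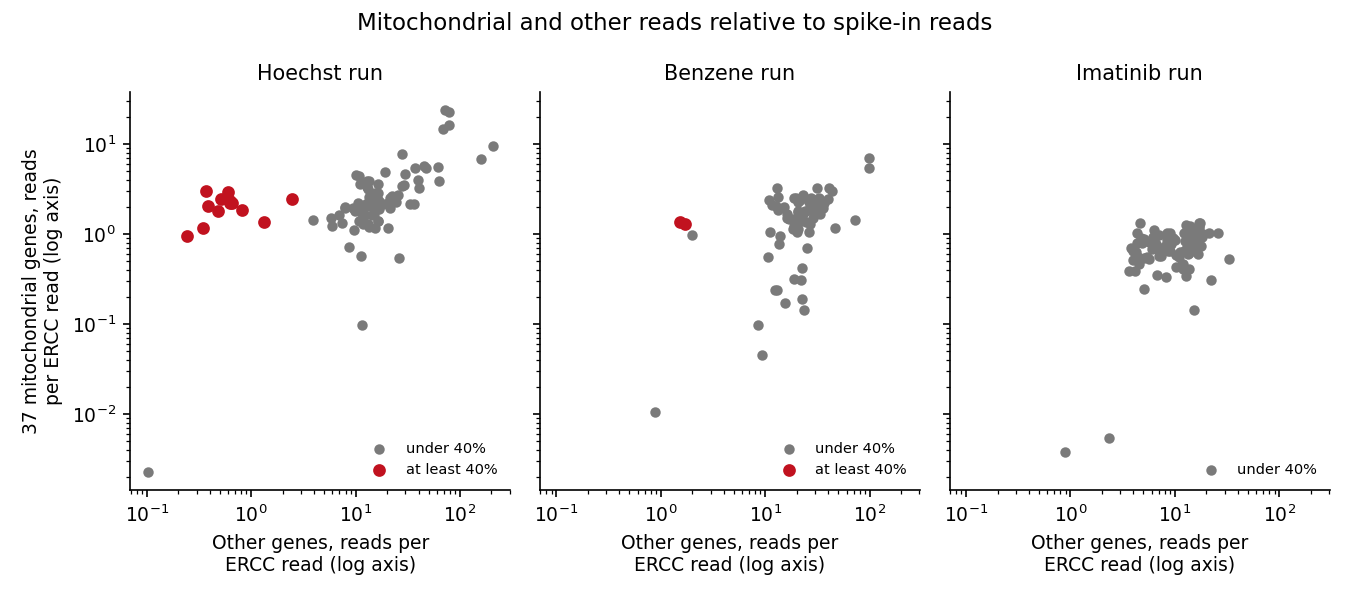
Reads on the 37 mitochondrial genes per ERCC spike-in read against reads on all other genes per ERCC read (both log axes), 1 point per library and 1 panel per run, with libraries of at least 40% mitochondrial reads in red. The red libraries lie within the vertical range of most grey ones but far to their left, at medians of 0.603 against 15.3 other reads per ERCC read in the Hoechst run. The 40% limit sets the ratio of the axes, so the separation of red from grey points along that ratio was built in.

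The tRNAs held 71338 reads or 0.202% of all mitochondrial reads. Some of these reads may come from precursor RNAs that still contain a tRNA. The paper lists ambiguously mapped reads apart from assigned reads. A read that spans a tRNA and its neighbour may therefore count for neither, which limits tRNA shares between read lengths. MT-TP, MT-TL1, MT-TV, MT-TQ and MT-TM had the most reads and together took 70.6% of tRNA reads. Their genes are shown in the RNA sense because each is shorter than or as long as a 75-base read.
MT-TP, chrMT:15956-16023, minus strand: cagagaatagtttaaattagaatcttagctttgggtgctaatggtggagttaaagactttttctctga
MT-TL1, chrMT:3230-3304, plus strand: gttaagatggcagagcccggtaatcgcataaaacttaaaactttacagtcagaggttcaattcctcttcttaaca
MT-TV, chrMT:1602-1670, plus strand: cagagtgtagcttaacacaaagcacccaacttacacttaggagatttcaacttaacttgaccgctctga
MT-TQ, chrMT:4329-4400, minus strand: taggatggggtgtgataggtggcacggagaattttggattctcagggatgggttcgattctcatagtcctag
MT-TM, chrMT:4402-4469, plus strand: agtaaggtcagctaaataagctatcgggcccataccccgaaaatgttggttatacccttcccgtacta
MT-TP, the proline tRNA on the minus strand, had 15689 reads in 258 of 263 libraries, or 48.6, 36.9 and 40.9 per 100000 mitochondrial reads in the Hoechst, benzene and imatinib runs. MT-TL1, a leucine tRNA next to MT-RNR2, had 13174 reads, or 45.1, 20.3 and 33.1 per 100000. MT-TV, the valine tRNA between the rRNA genes, had 13122 reads, or 54.6, 9.37 and 19.7 per 100000. By reads pooled over libraries MT-TV was therefore first in the Hoechst run and below MT-TP and MT-TL1 in the CellTracker runs. By the median library it was below both in every run: MT-TP, MT-TL1 and MT-TV had 80, 70.5 and 55.5 reads in the Hoechst run, 19, 15 and 6 in the benzene run, and 25, 24.5 and 16 in the imatinib run. MT-TQ had 5861 reads and MT-TM 2499. The other 17 tRNAs had between 397 and 2157 reads each, in 95 to 222 libraries. The library method gave no strand, so reads of a tRNA gene and of RNA from the opposite strand cannot be told apart.

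Nuclear copies of mitochondrial genes took few reads apart from a handful. Of 394 rows with such symbols, 213 had no read in any library, and all together held 609272 reads, equal to 1.72% of the mitochondrial reads. The top 5 took 96.03% of them. MTATP6P1, on chromosome 1 at chr1:569076-569756 (GRCh37), held reads equal to 18.5% of those on MT-ATP6, with 17.4%, 19.2% and 19.9% in the 3 runs. MTND2P28 held 5.41% of the reads of MT-ND2, MTCO1P12 0.727% of those of MT-CO1, MTND4P12 0.335% of those of MT-ND4 and MTCO2P12 0.139% of those of MT-CO2. Reads of these copies and of their mitochondrial genes cannot be fully told apart by their letters.

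Between summed groups, the mitochondrial genes were higher in the Hoechst run than in the untreated Green libraries of either CellTracker run. The ratios are log2 of CPM plus a pseudocount of 1, over counts summed per group, 1 sum a group. Against the benzene run's Green libraries, 26 of 37 mitochondrial genes were at least 2-fold higher and 0 at least 2-fold lower, where 32% of the 15859 genes tested were higher and 15.3% lower. Against the imatinib run's Green libraries 25 of 37 were higher and 0 lower, where 23.9% and 15% of 16011 genes were. The median log2 ratio of the 15 rRNAs and mRNAs was 1.28 and 1.56, beside 0.34 and 0.18 over all genes tested. MT-ND3 had the highest values of the 15, at 2.65 and 2.46, followed by MT-ND6 at 2.41 and 2.15. MT-RNR1 (-0.11 and 0.73) and MT-CYB (0.15 and 0.38) had the lowest. Without the libraries of at least 40% mitochondrial reads, 17 and 19 genes were higher and 1 and 2 lower, and the medians of the 15 were 0.98 and 1.04.

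Within the CellTracker runs few members reached 2-fold. Between the untreated Green libraries of the imatinib and benzene runs, 0 of 31 tested were at least 2-fold higher and 1 lower, against 23.7% and 16.6% of all genes. That gene was MT-TE, named after its value was seen, at a log2 ratio of -1.05. The median of the 15 was -0.15, but 0.033 without the 2 benzene run libraries of at least 40% mitochondrial reads. Per ERCC read, a scale that takes equal amounts of spike-in in both runs for granted, it was -0.83, beside -0.52 over all genes. On that scale 6 of 32 members tested were at least 2-fold lower, against 32.2% of all genes. Between benzene-treated Orange and untreated Green libraries, 0 of 29 tested were higher or lower, against 20.3% and 17.2% of all genes. All 15 rRNAs and mRNAs had ratios below 0, from -0.96 for MT-ND6 to -0.19 for MT-CO1, with a median of -0.40. Without the 2 Green libraries of at least 40% mitochondrial reads the median was -0.20, MT-CO1 stood at 0.10 and the other 14 remained below 0. With all libraries, per ERCC read the median was 0.21, beside 0.65 over all genes. There 14 of the 15 were above 0, so the direction depends on the scale. Between imatinib-treated Orange and untreated Green libraries, 0 of 31 were higher or lower, against 8.21% and 8.03% of all genes, and the 15 ranged from 0.04 for MT-RNR1 to 0.35 for MT-ND6 with a median of 0.23. These comparisons share control libraries, and dye and drug cannot be told apart in them.

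**Figure D5:**
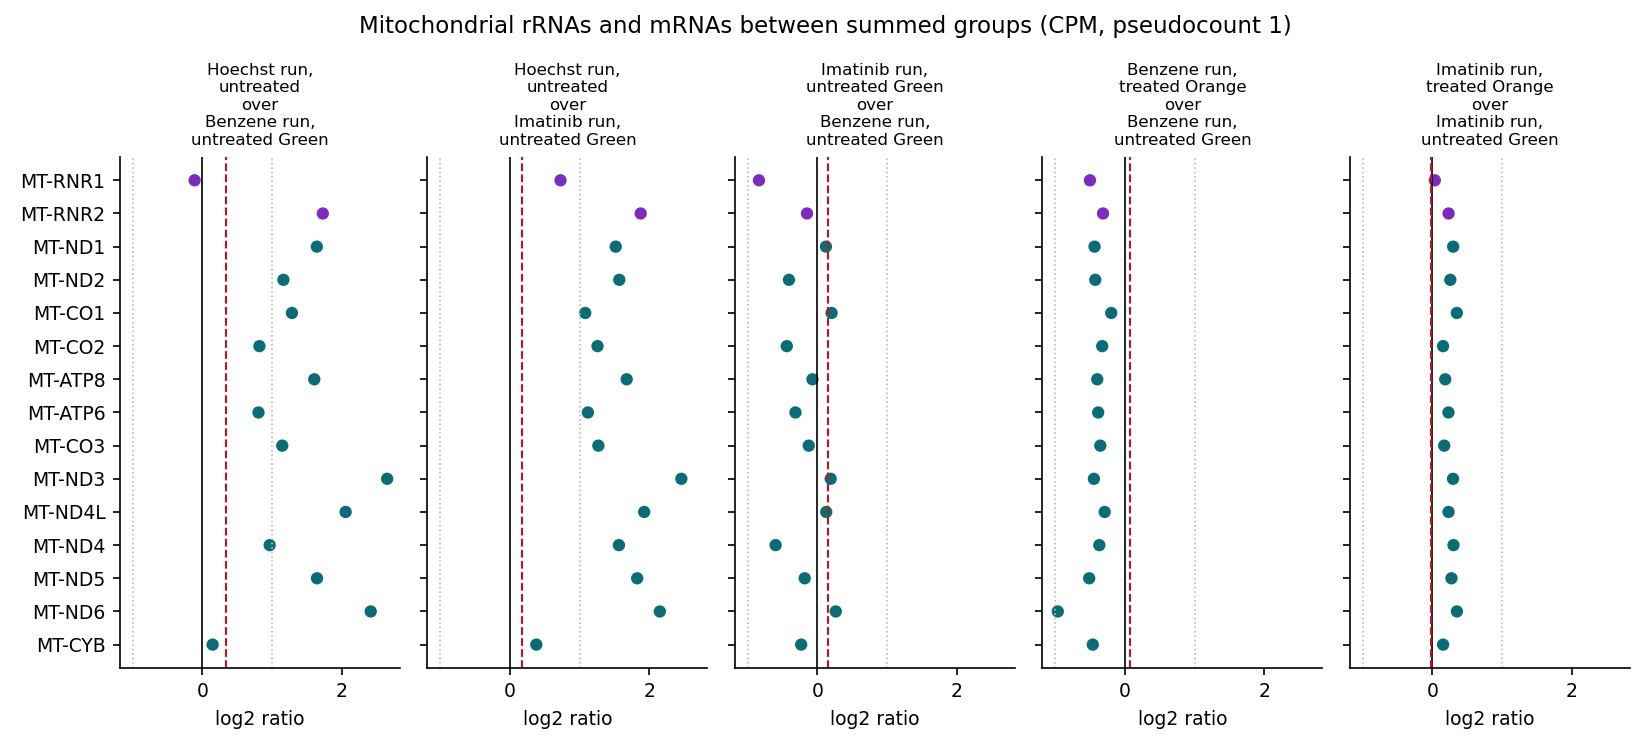
Log2 ratios of CPM (pseudocount 1) of 15 mitochondrial genes between summed groups, 1 panel per comparison, with rRNAs in purple and mRNAs in teal, dotted lines at 2-fold and a dashed red line at the median of all genes tested. In the Hoechst comparisons most genes lie to the right of that median, and in the drug comparisons all lie within 2-fold.

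Title numbers also bore on MT-CO1 between stains. In the imatinib run its median share was 12.6% in treated Orange and 7.60% in untreated Green libraries. Within numbers 1 to 24 the medians were 18.3% and 18.7%, and within 25 to 48 they were 18.3% and 19.2%, 12 libraries each. Within 49 to 72 they were 8.29% in 8 and 6.31% in 16 libraries, and within 73 to 96 they were 7.60% in 13 and 6.15% in 11. The Orange median was thus below the Green one in the first 2 blocks and above it in the last 2. In the benzene run the medians were 7.12% in Orange and 6.41% in Green libraries, within SDs of 4.23 and 2.80. For all 15 rRNAs and mRNAs, MT-CO1 included, the Orange and Green medians of a run differed by less than the SD of the Green libraries.

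The nuclear genes of mitochondrial RNA synthesis, processing and decay gave no direction shared by all comparisons. All 30 listed genes were tested in each comparison. In the Hoechst run, 5 were at least 2-fold higher and 4 lower than in the benzene run's Green libraries, where 32% and 15.3% of all genes were. Against the imatinib run's Green libraries 1 was higher and 10 lower, beside 23.9% and 15% of all genes. Between the Green libraries of the imatinib and benzene runs 10 were higher and 0 lower, beside 23.7% and 16.6%, and the list's median of 0.36 stood beside 0.15 over all genes. In the benzene comparison of Orange with Green 3 were higher and 1 lower, beside 20.3% and 17.2%, with medians of 0.097 and 0.067. In the imatinib comparison 0 and 0 were, beside 8.21% and 8.03%, with medians of -0.11 and -0.016. ELAC2, the endonuclease that cuts tRNA 3′ ends, had log2 ratios of 2.34 in the Hoechst run and 2.71 in the imatinib run over the benzene run's Green libraries. TWNK, the mitochondrial helicase, had 1.66 and 2.52, and TRMT10C, a subunit of mitochondrial RNase P, 1.46 in the first of these.

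In the Hoechst run over the imatinib run's Green libraries the largest values were -2.30 for PRORP, the nuclease of RNase P, -2.00 for TFB2M, a transcription initiation factor, and -1.74 for MTPAP, the mitochondrial poly(A) polymerase. TFB2M also stood at 1.89 in the imatinib over the benzene run's Green libraries. Within the benzene run POLRMT, the mitochondrial RNA polymerase, had 1.62, ELAC2 1.43 and TWNK -1.24. Within the imatinib run the largest values were -0.87 for FASTKD5, which acts in processing of mRNA ends that no tRNA borders, -0.83 for PDE12, a phosphodiesterase that removes poly(A), and -0.66 for POLG, the mitochondrial DNA polymerase. The mitochondrial mRNAs in the Hoechst run thus stood higher without a like shift of the list, whose medians were -0.24 and -0.68 there, beside 0.34 and 0.18 over all genes tested.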

How the data were processed

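Full-length cDNA was made from K562 cells on the Fluidigm C1 with SMARTer chemistry and sequenced as Nextera XT libraries, paired-end. The authors trimmed reads, aligned them to GRCh37 with ERCC sequences using HISAT2, marked duplicates with Picard 1.92 and deposited read counts per Ensembl gene from featureCounts (Subread 1.5.0, uniquely aligned reads). Whether duplicates were counted is not given in the sources used here. Counts of 263 of 267 titles were used, and 4 columns matching no listed title were left out. A deposited CPM table was not used.

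Shares of each gene in mitochondrial reads were computed per library (every library had at least 1000) and summarised as medians, quartiles and ranges. Groups were summed, scaled to CPM, filtered at 1 CPM in either sum and compared as log2 ratios with a pseudocount of 1. The ratio step was checked on simulated counts. Exact nuclear copies were found with blastn 2.17.0, and TMM factors came from edgeR 4.0.16. Gene positions came from GENCODE release 44 lifted to GRCh37. Named were all mRNAs and rRNAs, the 5 tRNAs and 5 nuclear copies with most reads and, per comparison, the 3 listed nuclear genes with the largest ratios. Members and lists were chosen with earlier results of these data known. Of the 10 markers of other cells, 9 could be matched by name. Analyses used Python 3.11.15, pandas 2.3.3 and scipy 1.17.1.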

Additional observations from a re-analysis of the deposited data

How the results depend on the processing

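Over 166 results and 1041 alternative values (827 planned, 214 added after the data were seen), 986 stayed within the spread between libraries or on the same side of the 2-fold limit. The choice that mattered most was restricting the libraries under 40% to the title numbers of those at or over 40% in the Hoechst run. It turned the MT-CO1 difference from 9.08 to -1.298 percentage points, that of MT-RNR2 from -5.76 to 0.490, and moved that of the rRNAs from -6.70 to -0.583 and that of the mRNAs from 6.75 to 0.437. The cause was not tested. The count of mitochondrial genes at least 2-fold apart was 26 between the Hoechst run and the benzene run's Green libraries. It was 15 with a pseudocount of 10 CPM, where 8.34% of all genes were higher and 6.43% lower, against 32% and 15.3% before. Between the Green libraries of the imatinib and benzene runs it was 1, and 2 with TMM factors, 0 with mean CPM over libraries, 0 with a pseudocount of 10 CPM and 6 per ERCC read. All of these were lower, as were 16.6%, 19.6% and 32.2% of all genes in the settings giving 1, 2 and 6. Between Orange and Green libraries of the benzene run it was 0, and 1 with TMM factors or with mean CPM, lower in each, as were 18.2% and 16.9% of all genes. Limits of 30% or 50%, in place of 40%, moved no difference by more than the spread between libraries. A 50% limit left no benzene library. No paired analysis was possible because no test was made: each group is 1 culture, and a title number shared between runs does not mark a shared sample. Depth limits MT-ND3, MT-ND6 and the tRNAs, with few reads per library.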
